A study of Homo sapiens and Mus musculus with 8 samples.

Results

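Expression of SOD2 and of 8 genes of the NRF2 pathway (TXNRD1, SLC7A11, NQO1, HMOX1, GCLM, GCLC, SRXN1 and NFE2L2) was compared between ATG9A KO and control ovarian cancer cells. The 9 genes were chosen by name from the 58381 gene identifiers of a bulk RNA count table, to set a superoxide dismutase driven by NF-kB beside genes driven by NRF2. The sgATG9A group was OVCAR-8, a human high-grade ovarian carcinoma line, carrying a lentiCRISPRv2 vector with a guide against the autophagy gene ATG9A. The sgGAL4 group was the same line carrying the same kind of vector with a guide against GAL4, a yeast gene that human cells lack. Each group had 2 libraries, described as biological replicates, and no drug or macrophage co-culture is given for them. Neither the labels nor the methods say whether the edited cells were clones or pools. All 9 genes passed the filter on low counts, beside 16141 gene identifiers in all. Levels are given as CPM, a gene's count divided by the TMM-scaled size of its library in units of 1e+06 counts, and the change as log2 of the ratio of sgATG9A to sgGAL4 cells.

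The 4 libraries held 22200998 to 22969233 counts. The targeted gene ATG9A had 12.8 and 11.5 CPM in sgATG9A cells, against 20.4 and 18.4 CPM in sgGAL4 cells (log2 fold change -0.68, adjusted p = 4.22e-05 from edgeR). Of 8 epithelial markers, the keratin gene KRT8, the ovarian lineage gene PAX8, KRT7, KRT18, EPCAM and WT1 were present in every library. Another keratin gene, KRT19, was at 0 counts in all libraries. CDH1 was near the floor, with 0.751 and 0.967 CPM in sgATG9A cells, against 0.714 and 0.616 CPM in sgGAL4 cells. KRT8, KRT7 and KRT18 were lower in sgATG9A cells (log2 fold change -0.73, -0.79 and -0.83) and PAX8 higher (1.21), all past edgeR's test. The summed level of the 8 epithelial markers, without scaling, was 2318 and 2309 CPM in sgATG9A libraries, against 3871 and 3699 CPM in sgGAL4 libraries. Of 11 markers of leukocytes, endothelium and fibroblasts, the leukocyte markers PTPRC, CD163 and CD3E were at 0 counts in all libraries. The summed level of the 11 markers was 247 and 255 CPM, here without scaling, in sgATG9A libraries, against 418 and 453 CPM in sgGAL4 libraries, nearly all of it COL1A1, a collagen gene (log2 fold change -0.79). The part of these shifts in the values below was not tested. In bulk RNA, fewer cells that express a gene and less RNA of it per cell cannot be told apart.

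NRF2, encoded by NFE2L2, is a transcription factor that is held low by KEAP1, an adaptor that hands it to a CUL3 ubiquitin ligase. Oxidants and electrophiles modify KEAP1, NRF2 accumulates, pairs with a small MAF protein and binds antioxidant response elements, while BACH1 competes for the same elements as a repressor. NRF2 targets make and recycle glutathione and thioredoxin, detoxify quinones and break down haem. SOD2 is the superoxide dismutase of the mitochondrial matrix, and its transcription is a classical response to NF-kB, the factor that TNF and interleukin-1 activate.

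SOD2 stood far above the other 8 genes in the size of its change. SOD2 (ENSG00000112096, chromosome 6 of GRCh38, 159669057 to 159745186, minus strand) had 301.4 and 301.4 CPM in sgATG9A cells, against 36.3 and 33.2 CPM in sgGAL4 cells. Both sgATG9A libraries lay at almost the same level, many times above both sgGAL4 libraries. The ratio was 8.67-fold, with a 95% interval of 7.95 to 9.47 (log2 fold change 3.12, standard error 0.06, adjusted p = 1.27e-20 from edgeR's quasi-likelihood test). Among the 16141 genes tested, only 0.223% had a higher log2 fold change. A second identifier with the symbol SOD2 (ENSG00000285441) shares 5.12% of the exon bases of the first, and reads that overlap several genes were not counted. It had 3 counts in each sgATG9A library, against 5 in each sgGAL4 library, and is not used further.

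**Figure D1:**
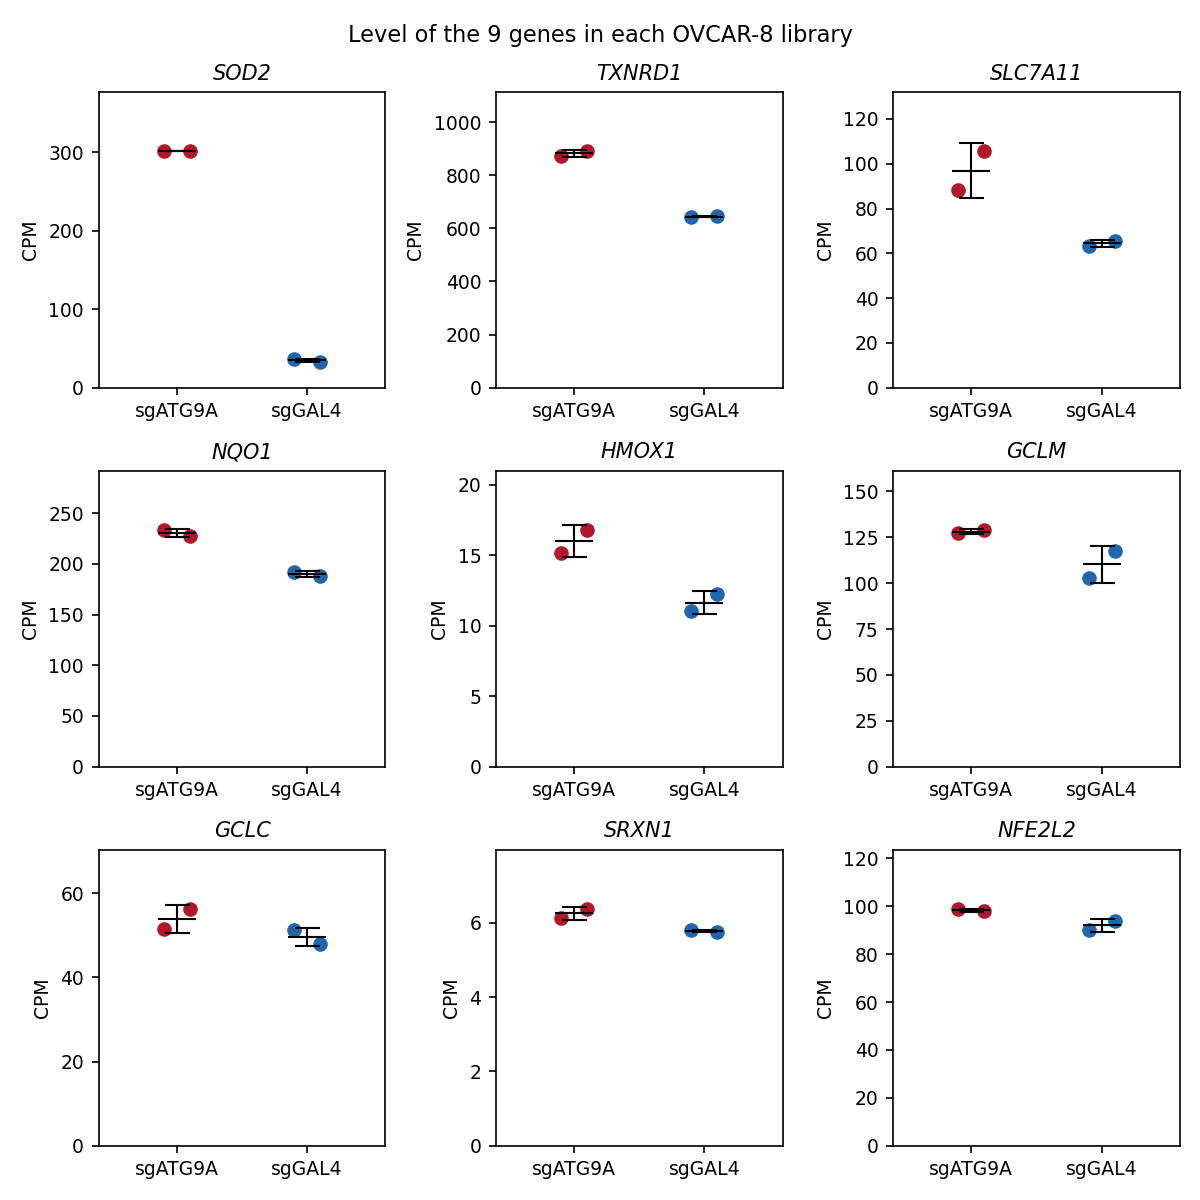
Level of each of the 9 genes in CPM (y axis, each panel with its own scale from 0) in sgATG9A (red) and sgGAL4 (blue) OVCAR-8 libraries. Points are libraries, the wide bar is the mean and the whiskers are 1 SD of 2 libraries. SOD2 lies near 301.4 CPM in both sgATG9A libraries, against 36.3 and 33.2 CPM in sgGAL4 libraries, whereas the means of the other genes differ by at most 50.4% (SLC7A11).

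Of the 9 genes, 6 rose in sgATG9A cells, 3 did not pass the test and 0 fell. The calls use edgeR at an adjusted p under 0.05 over all genes, where 16.3% of the genes tested were called, 8.93% higher and 7.42% lower, or 1441 and 1198 genes, against 1165 higher and 1658 lower with upper quartile scaling (0 of the 9 genes were lower at an unadjusted p under 0.05 or with DESeq2). Without SOD2, 5 of 8 rose, with a median log2 fold change of 0.25 (range 0.10 to 0.59), beside a median of -0.0022 over all genes tested. All 9 genes had both sgATG9A libraries above both sgGAL4 libraries, as did 27.8% of all genes tested, and 55.3% did not overlap in either direction. With the study's further limit of a log2 fold change above 1, only SOD2 of the 9 genes stayed among the higher genes, beside 1.28% of all genes tested, and 0 of the 9 were below -1, beside 0.644%.

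Of the other 8 genes, SLC7A11 had the highest log2 fold change. SLC7A11 (ENSG00000151012, chromosome 4, 138164097 to 138242349) encodes the light chain of the cystine-glutamate exchanger, which imports the cystine needed for glutathione. Its level was 88.3 and 105.6 CPM in sgATG9A cells, against 63.4 and 65.6 CPM in sgGAL4 cells. The sgATG9A libraries differed from each other by more than the sgGAL4 libraries did, and the groups did not overlap. The mean CPM was 50.4% higher in sgATG9A cells (log2 fold change 0.59, standard error 0.07, 95% interval 0.45 to 0.73, adjusted p = 9.03e-07 from edgeR). SLC3A2, the heavy chain that SLC7A11 needs at the cell surface, had a log2 fold change of 0.09 and did not pass the test.

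TXNRD1 (ENSG00000198431, chromosome 12, 104215779 to 104350305) encodes the cytosolic thioredoxin reductase, a selenoenzyme that reduces thioredoxin with NADPH. It had 873 and 891 CPM in sgATG9A cells, against 644 and 646 CPM in sgGAL4 cells, with both groups tight and well apart. The ratio was 1.37-fold, with a 95% interval of 1.29 to 1.46 (log2 fold change 0.45, standard error 0.04, adjusted p = 6.00e-08 from edgeR). SRXN1 (ENSG00000271303, chromosome 20, 646615 to 653370) encodes sulfiredoxin, which repairs over-oxidized peroxiredoxins. It had 139 and 145 counts in sgATG9A cells, against 130 and 131 counts in sgGAL4 cells. These are 6.14 and 6.37 CPM, against 5.80 and 5.76 CPM, a difference that did not pass the test (log2 fold change 0.11, 95% interval -0.19 to 0.42, adjusted p = 0.682 from edgeR). A read-through gene, AL121758.1, covers 85.0% of the exon bases of SRXN1, so reads there were not counted to either gene and the counts of SRXN1 come from its remaining exon bases.

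GCLC and GCLM are the catalytic and the modifier subunit of glutamate-cysteine ligase, the rate-limiting enzyme of glutathione synthesis. GCLM (ENSG00000023909, chromosome 1, 93885205 to 93909456) had 127.1 and 128.9 CPM in sgATG9A cells, against 102.9 and 117.5 CPM in sgGAL4 cells. Here the sgGAL4 libraries were the ones that spread, and their higher value lay closer to the sgATG9A libraries than to the other sgGAL4 library. The ratio was 1.16-fold, with a 95% interval of 1.07 to 1.26 (log2 fold change 0.22, standard error 0.06, adjusted p = 0.0102 from edgeR). Without sgGAL4 replicate 1, the library with the lower value, the log2 fold change was 0.12 and the call was lost (adjusted p = 0.260, and 0.000179 to 0.260 over all alternatives). GCLC (ENSG00000001084, chromosome 6, 53497341 to 53616970) had 51.6 and 56.2 CPM in sgATG9A cells, against 51.2 and 48.1 CPM in sgGAL4 cells. The lower sgATG9A library lay only just above the higher sgGAL4 library, and the difference did not pass the test (log2 fold change 0.12, 95% interval -0.01 to 0.25, adjusted p = 0.228 from edgeR).

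NQO1 (ENSG00000181019, chromosome 16, 69706996 to 69726951) encodes a quinone reductase that is widely used as a readout of NRF2. It had 233 and 227 CPM in sgATG9A cells, against 192 and 188 CPM in sgGAL4 cells. The groups were apart by several times the difference between replicates, at a ratio of 1.21 with a 95% interval of 1.12 to 1.30 (log2 fold change 0.28, standard error 0.05, adjusted p = 0.000470 from edgeR). HMOX1 (ENSG00000100292, chromosome 22, 35380361 to 35394214) encodes haem oxygenase-1, which opens haem to biliverdin, iron and carbon monoxide, and is the classical gene under BACH1 repression. It had 344 and 382 counts in sgATG9A cells, against 248 and 278 counts in sgGAL4 cells, or 15.2 and 16.8 CPM against 11.1 and 12.2 CPM. The mean CPM was 37.3% higher in sgATG9A cells (log2 fold change 0.46, standard error 0.11, 95% interval 0.24 to 0.68, adjusted p = 0.00406 from edgeR). The call of HMOX1 was lost with DESeq2 (adjusted p = 0.0603) and without sgGAL4 replicate 1 (log2 fold change 0.38, adjusted p = 0.0783 from edgeR), within a range of 0.000271 to 0.0866 over all alternatives.

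NFE2L2 (ENSG00000116044, chromosome 2, 177227595 to 177392697), the gene of NRF2 itself, had 98.8 and 97.9 CPM in sgATG9A cells, against 90.2 and 93.8 CPM in sgGAL4 cells. The difference did not pass the test (log2 fold change 0.10, 95% interval -0.01 to 0.20, adjusted p = 0.224 from edgeR). NRF2 is set mainly by how fast the protein is degraded, which RNA counts do not measure.

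**Figure D2:**
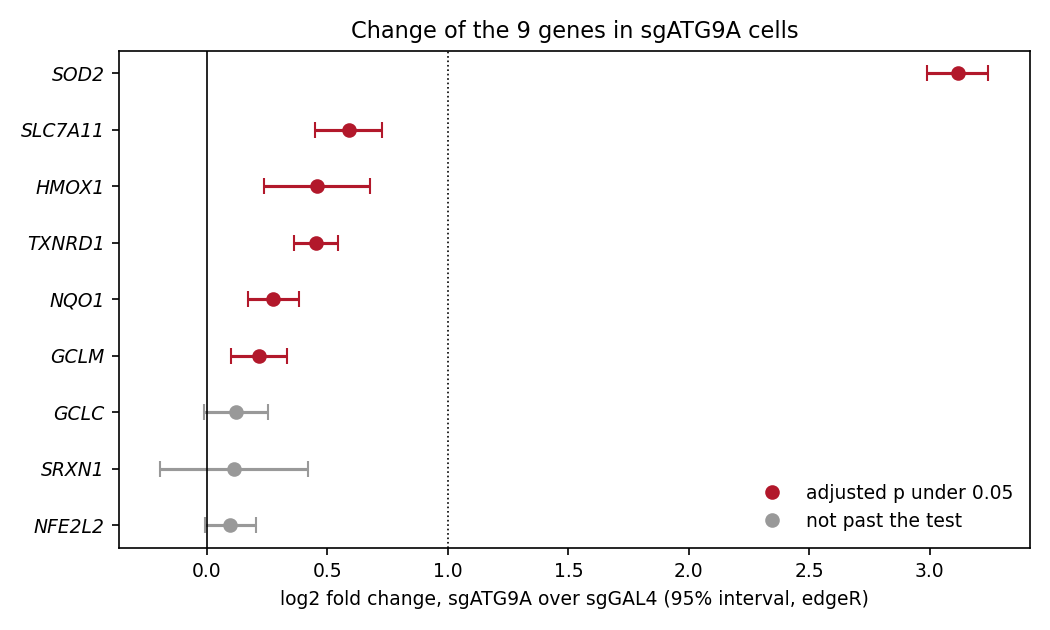
Log2 fold change of the 9 genes, sgATG9A over sgGAL4 (x axis), with 95% intervals from edgeR, coloured red for genes past the test and grey for the rest. The solid line marks no change and the dotted line a log2 fold change of 1. SOD2 lies at 3.12 and the other genes between 0.10 and 0.59, with the intervals of GCLC, SRXN1 and NFE2L2 crossing 0.

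SOD2 was also set against each of the other 8 genes inside each library, which needs no scaling between libraries. SOD2 gave 0.345 and 0.338 counts per count of TXNRD1 in sgATG9A cells, against 0.0564 and 0.0514 in sgGAL4 cells. Per count of NQO1 the values were 1.29 and 1.33 in sgATG9A cells, against 0.189 and 0.176 in sgGAL4 cells. For all 8 genes, both sgATG9A libraries lay above both sgGAL4 libraries, and the ratio was 5.81 (SLC7A11) to 8.10 times (NFE2L2) that of sgGAL4 cells. With 2 libraries against 2, an exact two-sided permutation test cannot go below 0.333, which was the p for each of the 8 genes. On the edgeR scale, the lower limit of the 95% interval of SOD2 was a log2 fold change of 2.99, and the highest upper limit among the other 8 genes was 0.73, that of SLC7A11.

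**Figure D3:**
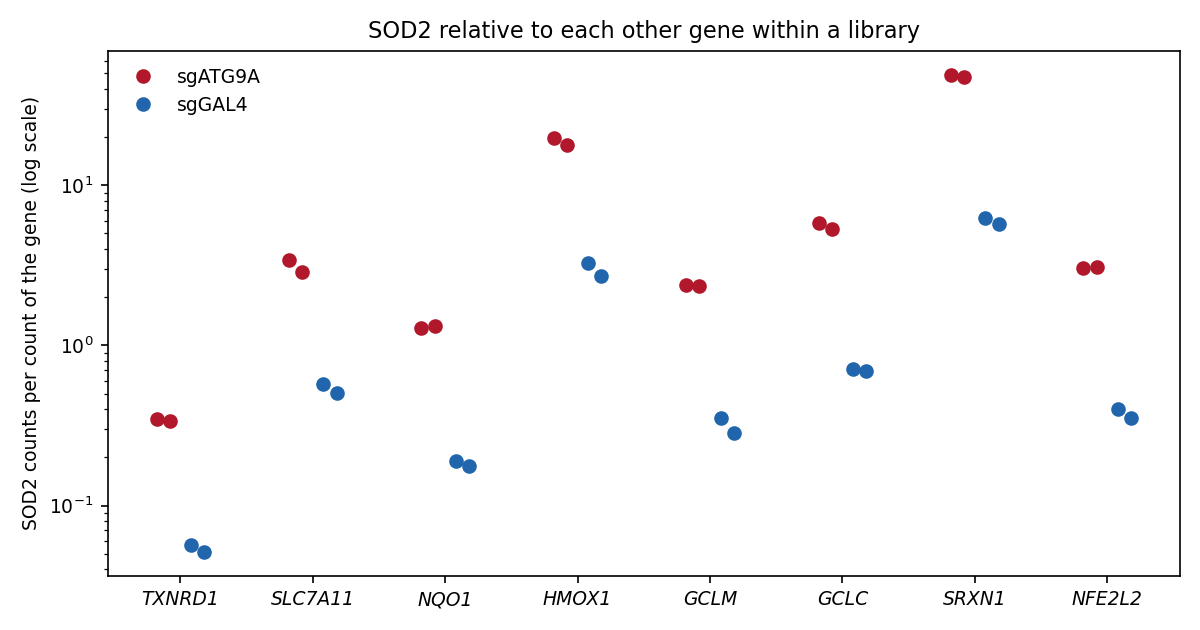
Counts of SOD2 per count of each other gene (y axis, log scale) in each sgATG9A (red) and sgGAL4 (blue) library. Heights cannot be compared between genes, whose lengths differ, and only the gap between colours is read. For every gene the sgATG9A libraries lie 5.81 to 8.10 times above the sgGAL4 libraries. All ratios share the counts of SOD2 and are not separate results.

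Promoter sequences were read to see which of these genes carry letters of an antioxidant response element near a start. Windows of 300 bases (250 before and 50 after a start, RefSeq, GRCh38.p14) were matched for 7 of the 9 genes, all but SLC7A11 and HMOX1, with 12 windows in all. The core TGACNNNGC was searched on both strands, as were the AP-1 motif TGANTCA, which overlaps the core where its free bases are TCA, and the kB consensus. The core was found in 3 of the 12 windows, those of TXNRD1 (2 windows) and GCLM. It was found in 13.3% of all 35116 windows and in 14.5% of the 16171 windows of tested genes. AP-1 was found in 0 of the 12 windows and the kB consensus in 0 of 12, beside 7.71% and 7.73% of all windows. Among windows of tested genes the shares were 5.45% for AP-1 and 9.32% for the kB consensus. Shown are 4 windows, with the core in capitals, for the pair that rose with the core and for NQO1 and SOD2, which rose without a match in their windows. For TXNRD1 the window is chr12:104286782-104287081 on the plus strand, where 6 of its 19 coding GENCODE transcripts start within 50 bases. Its other window (chr12:104215529-104215828) held 2 matches. For GCLM it is chr1:93909381-93909680 on the minus strand, the start of both of its coding transcripts.
TXNRD1: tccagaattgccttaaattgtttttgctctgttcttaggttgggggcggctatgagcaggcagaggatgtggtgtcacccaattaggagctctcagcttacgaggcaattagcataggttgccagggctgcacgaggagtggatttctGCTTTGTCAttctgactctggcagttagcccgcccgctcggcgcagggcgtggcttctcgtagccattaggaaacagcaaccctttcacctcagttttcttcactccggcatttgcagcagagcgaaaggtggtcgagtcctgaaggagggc
GCLM: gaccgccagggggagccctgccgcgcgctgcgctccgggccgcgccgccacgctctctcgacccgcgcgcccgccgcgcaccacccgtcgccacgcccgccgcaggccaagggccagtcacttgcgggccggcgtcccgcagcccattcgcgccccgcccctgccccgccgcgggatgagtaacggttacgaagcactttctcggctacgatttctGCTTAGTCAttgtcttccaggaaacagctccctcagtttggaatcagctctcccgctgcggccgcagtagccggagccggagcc
NQO1: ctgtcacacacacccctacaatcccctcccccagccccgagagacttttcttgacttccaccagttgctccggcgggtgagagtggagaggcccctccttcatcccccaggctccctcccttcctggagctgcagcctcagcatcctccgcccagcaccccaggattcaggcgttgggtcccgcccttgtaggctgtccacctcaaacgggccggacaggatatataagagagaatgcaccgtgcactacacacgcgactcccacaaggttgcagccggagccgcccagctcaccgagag
SOD2: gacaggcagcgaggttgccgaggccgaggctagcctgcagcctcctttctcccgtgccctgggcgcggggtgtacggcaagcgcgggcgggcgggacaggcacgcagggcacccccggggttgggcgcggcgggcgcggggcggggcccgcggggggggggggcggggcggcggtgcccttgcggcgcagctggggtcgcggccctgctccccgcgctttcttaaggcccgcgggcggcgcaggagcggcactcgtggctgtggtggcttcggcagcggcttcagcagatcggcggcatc
The windows of NQO1 (chr16:69726511-69726810) and SOD2 (chr6:159693192-159693491) are both on the minus strand, near the starts of 3 of 6 and 5 of 11 coding transcripts. In TXNRD1 the core reads TGACAAAGC on the opposite strand and its first printed letter lies 102 bases before the start. In GCLM it reads TGACTAAGC on the opposite strand, 34 bases before the start. A match is a string of letters and not a shown binding site, and elements outside these windows were not searched.

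Beyond the 9 genes, other genes widely described as NRF2 targets were read the same way. Of 30 such genes, 26 were tested, 5 rose, 1 fell and 20 were not called by edgeR, with a median log2 fold change of 0.17 beside -0.0022 over all genes tested, where 8.93% were higher and 7.42% lower. With upper quartile scaling 2 of them fell. The gene that fell was TKT, the transketolase (log2 fold change -0.15, adjusted p = 0.0358), and 0 genes of the list were lower without sgATG9A replicate 1, sgATG9A replicate 2 or sgGAL4 replicate 2. The 5 that rose were SQSTM1, GSR, MAFG, ME1 and FTL. In the lists below, SQSTM1 and MAFG are counted again among the regulators, GSR among glutathione genes and FTL among haem and iron genes. SQSTM1, which encodes the autophagy receptor p62, had 319.9 and 320.5 CPM in sgATG9A cells, against 205.6 and 202.4 CPM in sgGAL4 cells (log2 fold change 0.65, adjusted p = 1.38e-09 from edgeR). Its protein also binds KEAP1. GSR, the glutathione reductase, had 124.0 and 127.6 CPM in sgATG9A cells, against 88.8 and 97.7 CPM in sgGAL4 cells (log2 fold change 0.43). ME1, the cytosolic malic enzyme that makes NADPH, had a log2 fold change of 0.39 and FTL, the ferritin light chain, of 0.23. The pentose phosphate genes PGD and TALDO1 had log2 fold changes of 0.07 and 0.09 and did not pass the test. The aldo-keto reductase genes AKR1C1, AKR1C2 and AKR1C3, much used as NRF2 readouts, did not pass it either (0.27, 0.33 and 0.16, on at most 141 counts per library), and their near-identical sequences may share reads.

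Several partners and rivals of NRF2 rose. Of 16 genes that regulate NRF2, 6 rose, 0 fell (0 also with DESeq2 and at an unadjusted p under 0.05) and 10 were not called by edgeR. Their median log2 fold change was 0.08. Over all genes tested, 8.93% were higher and 7.42% lower. BACH1 had 100.2 and 107.7 CPM in sgATG9A cells, against 55.7 and 62.0 CPM in sgGAL4 cells (log2 fold change 0.82, standard error 0.06, adjusted p = 5.99e-10 from edgeR). MAFF, a small MAF protein, had 87.0 and 84.9 CPM in sgATG9A cells, against 49.1 and 47.3 CPM in sgGAL4 cells (log2 fold change 0.83). NFE2L3, a relative of NRF2, had 60.7 and 62.4 CPM in sgATG9A cells, against 36.0 and 34.6 CPM in sgGAL4 cells (log2 fold change 0.80). In all 3 genes the groups lay far apart next to the difference between replicates. NFE2L1, a relative that controls proteasome genes, and MAFG had log2 fold changes of 0.42 and 0.39, and SQSTM1 stands on this list too. With no filter on low counts, 5 genes of the list were higher and MAFG lost its call. MAFK, another small MAF gene, and BACH2 had overlapping groups and did not pass the test (log2 fold changes 0.10 and -0.12). KEAP1 had 90.3 and 91.4 CPM in sgATG9A cells, against 88.5 and 86.6 CPM in sgGAL4 cells (log2 fold change 0.05, adjusted p = 0.555 from edgeR). CUL3 had 95.1 and 98.1 CPM in sgATG9A cells, against 98.4 and 95.5 CPM in sgGAL4 cells, with overlapping groups (log2 fold change -0.01, adjusted p = 0.964 from edgeR). The sign of CUL3 turned without sgATG9A replicate 1 or sgGAL4 replicate 1, at 0.02 and 0.01.

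**Figure D4:**
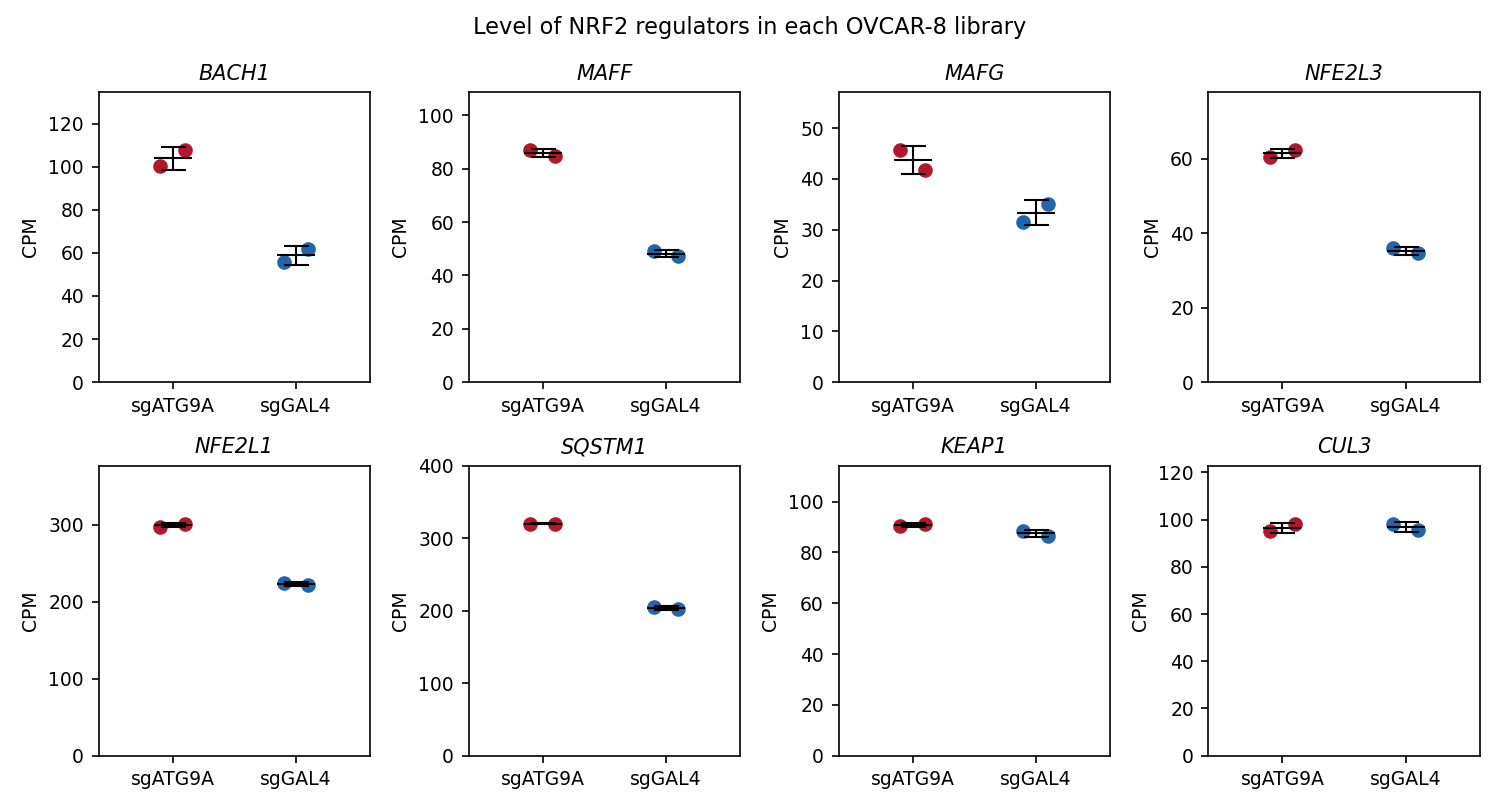
Level in CPM (y axis, each panel with its own scale from 0) of 8 genes that regulate NRF2 in sgATG9A (red) and sgGAL4 (blue) libraries. Points are libraries, the wide bar is the mean and the whiskers are 1 SD of 2 libraries. BACH1, MAFF, MAFG, NFE2L3, NFE2L1 and SQSTM1 lie higher in sgATG9A cells, whereas KEAP1 and CUL3 lie at like levels in both groups.

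In the rest of the glutathione and thioredoxin systems, genes were called in both directions. So were 8.93% of all genes tested as higher and 7.42% as lower. The counts of these short lists were not tested against those shares. Of 27 tested glutathione genes other than the 9, 5 rose, 2 fell and 20 were not called by edgeR (median log2 fold change -0.00029). CHAC1, which degrades glutathione, had a log2 fold change of 0.77, GGT1, which cleaves it outside the cell, 0.65, and MGST1, a microsomal glutathione transferase, 0.56. The glutathione transferase gene GSTM2 had 3.00 and 3.08 CPM in sgATG9A cells, against 4.91 and 5.85 CPM in sgGAL4 cells (log2 fold change -0.82). Its call was lost without sgGAL4 replicate 2 (adjusted p = 0.0570 from edgeR), and its sequence is shared in part with other GSTM genes. The other gene that fell was GGT7 (log2 fold change -0.32). Of the list, 1 gene was lower without sgATG9A replicate 2, sgGAL4 replicate 1 or sgGAL4 replicate 2, 0 with DESeq2 and 4 with upper quartile scaling. Of 18 thioredoxin and peroxiredoxin genes, 2 rose, 4 fell and 12 were not called by edgeR (median -0.02). The number that rose was 1 with upper quartile scaling and without sgATG9A replicate 1 or sgGAL4 replicate 1, and 0 without sgGAL4 replicate 2. TXNRD2, the mitochondrial counterpart of TXNRD1, had 50.2 and 49.3 CPM in sgATG9A cells, against 69.3 and 64.2 CPM in sgGAL4 cells (log2 fold change -0.42, adjusted p = 1.96e-05 from edgeR). TXN2, the mitochondrial thioredoxin, had a log2 fold change of -0.28 and SESN3, a sestrin, of -0.74, both past the test. PRDX2 (log2 fold change -0.28) and SESN2 (0.42) passed it too, but without sgGAL4 replicate 2 their adjusted p was 0.189 and 0.175 in edgeR, and that of PRDX2 was 0.0799 without sgATG9A replicate 2. PRDX4, a peroxiredoxin of the endoplasmic reticulum, had 0.17. TXN, the cytosolic thioredoxin, had a log2 fold change of -0.03 and did not pass.

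Of 4 other genes that remove superoxide and peroxide, 0 rose in edgeR (0 with DESeq2 and at an unadjusted p under 0.05), 1 fell and 3 were not called. Among all genes tested, 8.93% were higher and 7.42% lower. SOD1, the cytosolic superoxide dismutase, had 233 and 219 CPM in sgATG9A cells, against 219 and 227 CPM in sgGAL4 cells, with overlapping groups (log2 fold change 0.02, adjusted p = 0.862 from edgeR). SOD3 and the copper chaperone CCS did not pass the test either. CAT, the gene of catalase, had 26.6 and 25.7 CPM in sgATG9A cells, against 30.6 and 32.7 CPM in sgGAL4 cells (log2 fold change -0.27, adjusted p = 0.0180 from edgeR). Its call was lost with DESeq2 and with no filter on low counts, where 0 genes of the list were lower. The call was also lost without sgATG9A replicate 2 or sgGAL4 replicate 2. Leaving out 1 library gave log2 fold changes of -0.323 to -0.223 for CAT. Among 7 tested genes of superoxide producing oxidases, 3 rose and 0 fell in edgeR, beside the same shares over all genes. With DESeq2 and at an unadjusted p under 0.05, 0 of them fell too. On this list 9 others were under the filter on low counts. CYBA, the p22phox subunit of NADPH oxidases, had a log2 fold change of 0.33. XDH, the xanthine dehydrogenase gene, had 0.44, but its adjusted p in edgeR was 0.118 without sgATG9A replicate 1, 0.0684 without sgGAL4 replicate 1 and 0.0753 without sgGAL4 replicate 2.

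Of 13 tested genes of haem and iron handling other than HMOX1, 7 rose, 0 fell and 6 were not called by edgeR. Their median log2 fold change was 0.23. With DESeq2 0 of them fell and with upper quartile scaling 1, and 1, BLVRB, was lower at an unadjusted p under 0.05. For comparison, 8.93% of all genes tested were higher and 7.42% lower. TFRC, the transferrin receptor, had 388 and 413 CPM in sgATG9A cells, against 172 and 163 CPM in sgGAL4 cells (log2 fold change 1.26, adjusted p = 3.71e-14 from edgeR). SLC11A2, which carries ferrous iron out of endosomes, had a log2 fold change of 0.79, and the metal importers SLC39A8 and SLC39A14 of 0.48 and 0.39. STEAP3, which reduces iron in endosomes, had 0.14 and did not pass (adjusted p = 0.187 from edgeR). LCN2, which binds iron-loaded siderophores, had 19 and 22 counts in sgATG9A cells, against 4 and 1 counts in sgGAL4 cells (log2 fold change 2.97). At such counts its call was lost without sgGAL4 replicate 2 (adjusted p = 0.0586 from edgeR). FTH1, the ferritin heavy chain, had a log2 fold change of 0.05 and did not pass. Of 7 tested genes of metallothioneins, their activator MTF1 and the zinc exporter SLC30A1, 3 rose, 0 fell and 4 were not called by edgeR. This again stands beside 8.93% higher and 7.42% lower over all genes. With DESeq2 and at an unadjusted p under 0.05, 0 of the 7 fell too. MT2A had 1091 and 1086 CPM in sgATG9A cells, against 588 and 677 CPM in sgGAL4 cells (log2 fold change 0.78), and MT1E had 0.33. MT1X had 0.27, with its call lost in edgeR without sgATG9A replicate 2 (adjusted p = 0.219), sgGAL4 replicate 1 (0.0911) or sgGAL4 replicate 2 (0.0868). Metallothioneins have near-identical sequences and may share reads.

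Of 11 tested genes of lipid peroxidation and its control, 1 rose, 0 fell and 10 were not called by edgeR (median log2 fold change 0.04). With DESeq2 0 of them fell, and with upper quartile scaling 1. The shares over all genes tested were 8.93% higher and 7.42% lower. The gene that rose was GCH1, which makes the radical-trapping cofactor tetrahydrobiopterin, with 32.6 and 32.4 CPM in sgATG9A cells, against 15.2 and 17.4 CPM in sgGAL4 cells (log2 fold change 0.99, adjusted p = 1.50e-08 from edgeR). GPX4, the peroxidase of membrane lipids, had 130.7 and 128.0 CPM in sgATG9A cells, against 141.9 and 143.9 CPM in sgGAL4 cells, at an adjusted p of 0.0568 from edgeR (log2 fold change -0.14). GPX4 was the 1 gene of the list lower at an unadjusted p under 0.05. Targets of ATF4, the amino acid stress factor that also drives SLC7A11, were set beside the same shares. Of the 14 tested, 6 rose, 0 fell and 8 were not called by edgeR (median 0.31). With DESeq2 and at an unadjusted p under 0.05, 0 of them fell too. CHAC1 and SESN2, which rose, are counted on lists above as well. Without sgGAL4 replicate 2, 3 rose. With no filter on low counts, 2 rose. DDIT4 had a log2 fold change of 0.92, and 0.74 to 1.09 on leaving out 1 library. Its call was not kept under every alternative. CHAC1 had a log2 fold change of 0.77. TRIB3, SLC7A5 and ATF5 (-0.08, -0.08 and -0.12) did not pass the test, nor did ASNS and DDIT3 (0.54 and 0.27). ATF3 (0.77) and CTH (0.37) lost their calls without sgATG9A replicate 2 or either sgGAL4 library, and CTH without sgATG9A replicate 1 as well, at an adjusted p of 0.0537 to 0.0917 for ATF3 and 0.0636 to 0.184 for CTH from edgeR.

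NF-kB genes rose together. All 13 genes of the NF-kB core and its targets rose in edgeR's test, beside 8.93% of all genes tested. Their log2 fold changes were 0.24 (RELA) to 4.15 (NFKBIZ), with a median of 1.36. TNFAIP3, an NF-kB inhibitor, had 51.9 and 52.2 CPM in sgATG9A cells, against 6.20 and 7.08 CPM in sgGAL4 cells (log2 fold change 2.97). BIRC3, an inhibitor of apoptosis, had a log2 fold change of 2.78, NFKBIA of 1.89 and ICAM1 of 1.77. The lists were chosen with earlier results known, so the counts describe these genes and are no independent evidence. The 5 genes whose centred log2 CPM over the 4 libraries lay nearest to that of SOD2 (Euclidean distance, among 10146 genes whose mean log2 CPM was 3 or more) were CLDN1, IRAK2, PPP4R4, ESM1 and TNFAIP3. Their distances were 0.0645 to 0.276 and their log2 fold changes 2.95 to 3.19. In a comparison of 2 groups such nearness is mostly likeness of fold change.

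**Figure D5:**
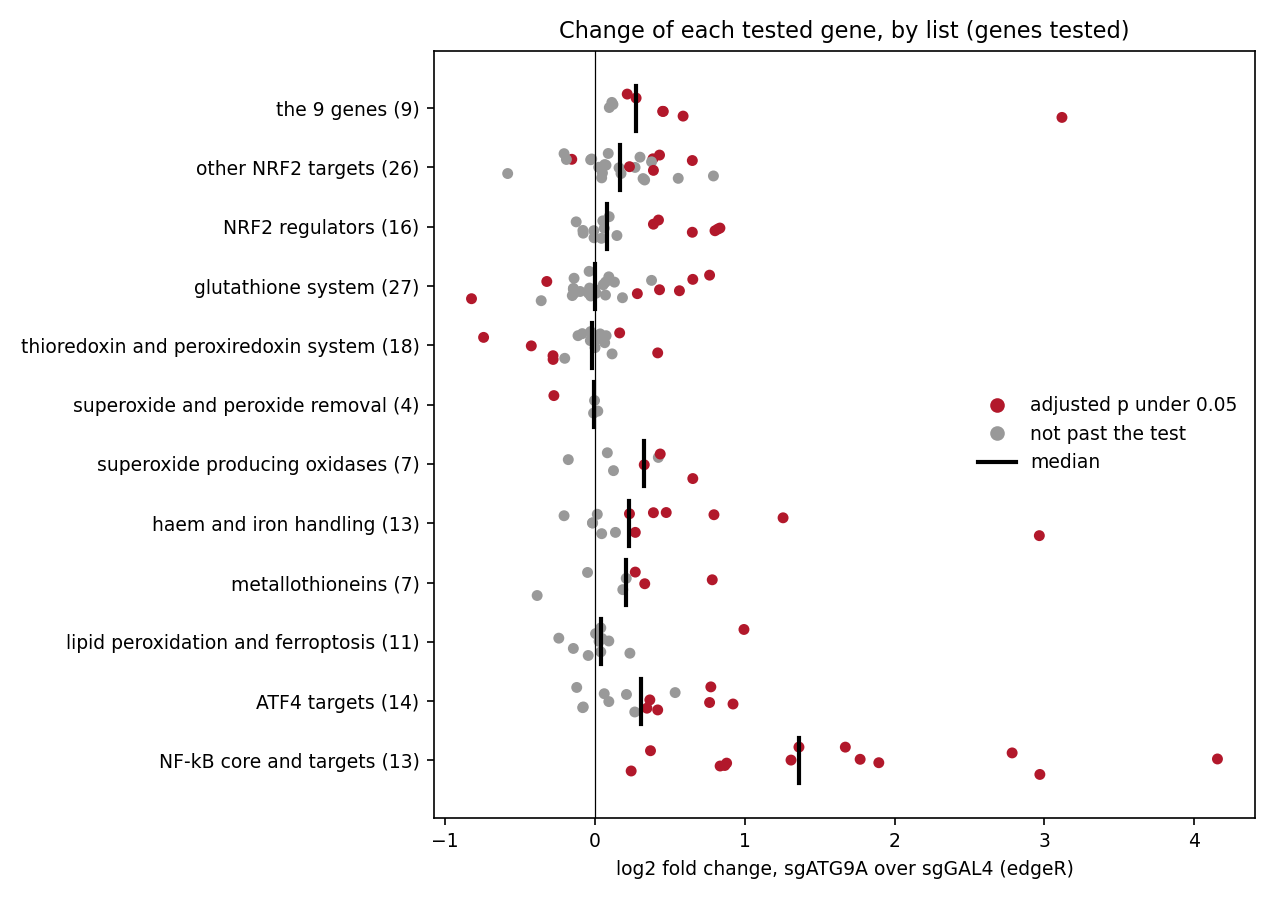
Log2 fold change, sgATG9A over sgGAL4, from edgeR (x axis) of each tested gene, by list (y axis, with the number tested), coloured red for genes past the test and grey for the rest. Black bars are medians and some genes stand on more than 1 list. The median is 0.28 for the 9 genes, 0.17 for other NRF2 targets and 1.36 for NF-kB genes. SOD2 at 3.12 lies within the range of the NF-kB list (0.24 to 4.15), as do SLC7A11, HMOX1, TXNRD1 and NQO1.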

How the data were processed

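RNA of 4 OVCAR-8 libraries was analysed, 2 of sgATG9A and 2 of sgGAL4 cells. The deposited values are raw counts per gene, which the authors made with cutadapt, FastQC, STAR (GRCh38) and featureCounts over GENCODE v28 exons, from uniquely mapped reads, without using strand and without reads that overlap several genes. Strand-blind counting cannot tell a gene from an antisense partner. The labels describe a 3' end kit and the paper's methods paired-end reads. The totals of 22200998 to 22969233 counts, 2 libraries per group and counting error limit the precision. The single-cell files of the series were not used here, and 0 per-sample columns were left out.

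Symbols and positions came from GENCODE v29, which held 58261 of 58381 identifiers. Counts were filtered (filterByExpr), TMM-normalized and tested with the quasi-likelihood test of edgeR 4.0.16 in R 4.3.3, two-sided, with Benjamini-Hochberg adjustment over 16141 genes. Standard errors and 95% intervals were derived from its F statistics. The script was tested on simulated data. Alternatives were DESeq2 1.42.0, RLE and upper quartile scaling, no filter, at least 50 counts in all, leaving out each library, and the replicate number as a block. Replicate libraries differed by more than sampling noise. The members and lists were chosen with earlier results of these data known. Named were the 9 genes, up to 5 called genes per list by size of change, KEAP1, BACH1, CUL3, ATG9A and the 5 genes nearest to SOD2. Other genes were named after their values were seen. Some genes of the lists are not reported here.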

Additional observations from a re-analysis of the deposited data

How the results depend on the processing

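SOD2, TXNRD1, SLC7A11 and NQO1 kept their direction and stayed past the test under all 10 alternatives, with log2 fold changes of 3.05 to 3.18 for SOD2, 0.42 to 0.47 for TXNRD1, 0.45 to 0.71 for SLC7A11 and 0.24 to 0.29 for NQO1. GCLC, SRXN1 and NFE2L2 kept their direction and passed under none. HMOX1 lost its call with DESeq2 (log2 fold change 0.46) and with no filter on low counts (0.46), and GCLM with no filter (0.22). Leaving out 1 library gave 0.38 to 0.53 for HMOX1 and 0.12 to 0.32 for GCLM. The number of the 9 genes called was 4 to 6 over all alternatives. CUL3 changed sign in 2 leave-one-out fits, at 0.0185 and 0.0139, within a leave-one-out range of -0.0280 to 0.0185.

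Over all genes, edgeR called 2639 (1441 higher, 1198 lower), DESeq2 1450 (856 higher, 594 lower) and edgeR with no filter 943 (578 higher, 365 lower). With no filter 32430 genes were tested. Leaving out 1 library gave 1629 to 2064 in all, 893 to 1177 higher and 736 to 887 lower, the lowest without sgGAL4 replicate 1. Below a log2 fold change of -1, 104 genes were called, against 51 with DESeq2, 53 with no filter and 67 to 112 without 1 library. Of the listed genes, 53 were called, 34 with no filter and 43 to 50 without 1 library. Upper quartile scaling moved the median of all genes to -0.0395 and turned the balance of directions, with 1165 genes higher and 1658 lower.

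The replicate number as a block gave 3398 calls in all and changed no call among the 9 genes. With it the number of genes that fell was 1 on the lipid peroxidation list (0 without), 1 on the haem and iron list (0 without), 2 among other NRF2 targets (1 without) and 3 on the glutathione list (2 without). Shared preparation of same-numbered libraries is not stated. Across 16141 genes, which are not independent, replicate differences of the groups correlated at 0.0496, and at 0.150 across the 10147 genes with a mean log2 CPM above 3. SRXN1 had at most 145 counts in a library, and its 95% interval covers log2 fold changes of -0.19 to 0.42.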
